A study of Mus musculus with 15 samples.

Results

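The 10 genes described here encode enzymes of glycolysis and its branch points, *Hk1*, *Hk2*, *Pfkl*, *Pfkp*, *Aldoa*, *Pgk1*, *Eno1*, *Pkm*, *Ldha* and *Pdk1*. They were taken from a list of gene names, with no threshold on their values. The list was chosen with earlier results of these data known. They are 10 of the 48709 genes counted in all 15 RNA-seq libraries. The libraries are of mouse ESCs from which OCT4, a pluripotency factor made by *Pou5f1*, was taken away. Glycolysis turns glucose into pyruvate in the cytosol and yields ATP as it does so. Pyruvate is then either reduced to lactate or passed to the mitochondria, and naive ESCs are known to use both routes. Most steps can be run by several isozymes from separate genes that differ in regulation and tissue, so a cell can keep a step while changing the gene that serves it.

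OCT4 was removed by either of 2 routes. CreER ESCs (genotype Oct4Fl/-; CAG CreER; mixed 129SV C57BL/6) carry a floxed *Pou5f1* allele over a null allele and a tamoxifen-activated Cre driven by the ubiquitous CAG promoter, and 500 nM 4-OHT starts the deletion. They were sequenced untreated (0 h) and 12, 18, 24 and 36 h after 4-OHT, with 2 libraries per time. O4AID ESCs (129SV; Oct4-/- with the transgenes CAG Tir1, CAG Oct4AID and TetOFF Oct4) have no endogenous OCT4, hold their wild-type *Oct4* transgene silent with doxycycline at all times, 0 h included, and live on a CAG-driven OCT4 fused to an auxin-inducible degron, which 500 µM of the auxin IAA sends to degradation. They were sequenced untreated (0 h) and 1.5, 6, 10 and 24 h after IAA, with 1 library per time. No library of a line given 4-OHT or IAA without an OCT4 target was analysed here, so the agent and the loss of OCT4 cannot be told apart. The labels give the same naive medium for both lines, whereas for other assays the study moved CreER ESCs to serum medium as 4-OHT was added. Whether the sequenced CreER cultures were moved was not given in the sources used here. Nothing says that the CreER replicates came from separate cultures, so their p-values measure the spread between these libraries, which may be technical.

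Libraries held 21.7 to 30.8 mega-reads in CreER and 40.5 to 48.7 mega-reads in O4AID, and each of the 10 genes had at least 920 reads in every library. *Pou5f1* mRNA, the target of deletion in CreER, was at log2 -1.43 against 0 h at 36 h (edgeR adjusted p = 4.15e-19), and in O4AID, where the protein is the target, its log2 change stayed between -0.22 and 0.19. The ESC label was checked on 8 markers of naive pluripotency, none of which was at 0 in any library. Their summed level went from between 2486 and 2495 counts per mega-count (CPM) at 0 h to between 2314 and 2393 at 36 h in CreER and from 5882 to 1569.8 at 24 h in O4AID. That of 8 trophectoderm markers, the lineage ESCs enter without OCT4, went from between 269 and 279 to between 552 and 606 in CreER and from 25.1 to 94.3 in O4AID. None of the 8 was at 0. The part of this shift in the values below was not tested, and in bulk RNA fewer cells of a type and less RNA per cell cannot be told apart.

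Genes of this pathway are classical targets of hypoxia-inducible factors, which bind ACGTG or GCGTG, and of MYC, which binds the E-box CACGTG. Upstream windows of 250 bases from RefSeq (GRCm38.p6) were found for all 10 genes, 18 windows in all. Windows are given for the hexokinase pair that went apart in CreER and for the 2 other genes with the largest drops in O4AID. Each is written 5′ to 3′ on the gene's strand and ends at the base before the annotated start. For *Hk1* and *Ldha*, which have 2 windows each, the one with more matches is shown. Capitals mark ACGTG or GCGTG on either strand.
Hk1, chr10:62340422-62340671, minus strand: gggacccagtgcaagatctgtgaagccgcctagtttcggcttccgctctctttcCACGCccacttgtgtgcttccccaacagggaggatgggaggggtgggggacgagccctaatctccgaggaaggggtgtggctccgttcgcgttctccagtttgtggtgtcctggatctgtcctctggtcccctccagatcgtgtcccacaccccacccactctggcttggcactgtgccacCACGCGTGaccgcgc
Hk2, chr6:82774455-82774704, minus strand: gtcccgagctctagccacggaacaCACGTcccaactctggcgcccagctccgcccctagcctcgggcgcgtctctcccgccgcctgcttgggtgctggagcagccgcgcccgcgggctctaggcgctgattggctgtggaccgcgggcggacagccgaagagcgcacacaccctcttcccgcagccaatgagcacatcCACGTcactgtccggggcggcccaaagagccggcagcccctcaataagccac
Pfkp, chr13:6648772-6649021, minus strand: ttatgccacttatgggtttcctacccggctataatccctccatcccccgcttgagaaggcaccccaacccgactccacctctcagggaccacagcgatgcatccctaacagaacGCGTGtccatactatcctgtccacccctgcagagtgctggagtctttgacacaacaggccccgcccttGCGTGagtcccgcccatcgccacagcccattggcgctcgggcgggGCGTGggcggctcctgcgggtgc
Ldha, chr7:46845554-46845803, plus strand: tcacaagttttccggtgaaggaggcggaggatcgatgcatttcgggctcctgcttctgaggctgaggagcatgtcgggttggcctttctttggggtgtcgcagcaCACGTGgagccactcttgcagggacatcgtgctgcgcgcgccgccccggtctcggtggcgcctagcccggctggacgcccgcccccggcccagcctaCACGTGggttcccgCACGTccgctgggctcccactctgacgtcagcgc
The *Hk2* and *Ldha* windows hold ACGTG (2 and 5 matches, overlapping ones on opposite strands counted apart), the *Hk1* and *Pfkp* windows hold GCGTG (3 and 3), and the *Ldha* window alone of the 18 holds CACGTG, at 2 places, each of which contains ACGTG on both strands. The *Hk1* window not shown holds no match, and the *Ldha* window not shown holds 1 GCGTG and no ACGTG. Over the 10 genes, 14 of 18 windows hold either 5-base motif, against 38.6% of 32841 windows of all genes, but the member windows are richer in G and C (median 62.8% against 52.4%), and several windows of one gene overlap. CACGTG is in 6.02% of all windows. The octamer ATGCAAAT, the motif of OCT4 itself, is in none of the 18 and in 1.60% of all. *Hk1*, *Aldoa*, *Eno1*, *Pkm*, *Ldha* and *Pdk1* have more than 1 annotated start, and counts per gene do not show which was used. A match is a string of letters, not a bound site.

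The question for each course was which of the 10 genes moved after OCT4 loss began, and when. In CreER, *Hk1* rose and *Hk2* and *Ldha* fell from 18 h on, *Pfkp* rose, and the remaining genes moved late and little or did not pass the test. Of the 10 genes, 0 passed the edgeR quasi-likelihood test (adjusted p under 0.05) at 12 h, when 0.395% of the 18969 genes tested did. DESeq2 also called 0, and 3 had an unadjusted p under 0.05 in edgeR. At 18 h, 2 of 10 rose and 2 fell, against 8.52% of all genes called, 4.73% higher and 3.79% lower. At 24 h again 2 rose and 2 fell, against 21.6%, 11.0% higher and 10.6% lower. The same 4 genes were called at both times. At 36 h, 2 rose and 6 fell, where 36.6% of all genes were called, 19.4% higher and 17.2% lower. Both libraries lay on 1 side of both 0 h libraries for 7 of the 10 genes at 12 h (38.2% of all genes), and for 8 at each of 18 h (50.5%), 24 h (58.6%) and 36 h (64.4%). At these 4 times the median log2 change of the 10 was -0.077, -0.039, -0.041 and -0.15, whereas the median over all genes tested lay between -0.00035 and 0.013.

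In O4AID the 10 genes were all lower at the end, with *Pfkp*, *Hk2* and *Ldha* lowest and *Hk1* and *Pdk1* least changed. With 1 library per time there is no test, and a gene was counted when its log2(CPM + 1) difference from 0 h was past 1.5-fold. None of the 10 was past it at 1.5 h, where 0.762% of 13772 genes were, 0.276% higher and 0.486% lower. At 6 h 1 was, lower, against 5.18% of all genes (2.65% higher, 2.53% lower). At 10 h 2 were, both lower, against 9.32% (5.4% higher, 3.92% lower), and at 24 h 6 were, all lower, against 22.3% (12.6% higher, 9.77% lower). All 10 were below their 0 h level at 1.5 h and again at 24 h. Their median difference was -0.16, -0.11, -0.21 and -0.67 at 1.5, 6, 10 and 24 h, whereas the median over all genes was within 0.01 of 0 at each time. At 6 h the level of 6 of the 10 was above that at 1.5 h, and against the 1.5 h library the 6 h median was 0.064, so the sign at 6 h rests on the 0 h library.

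**Figure D1:**
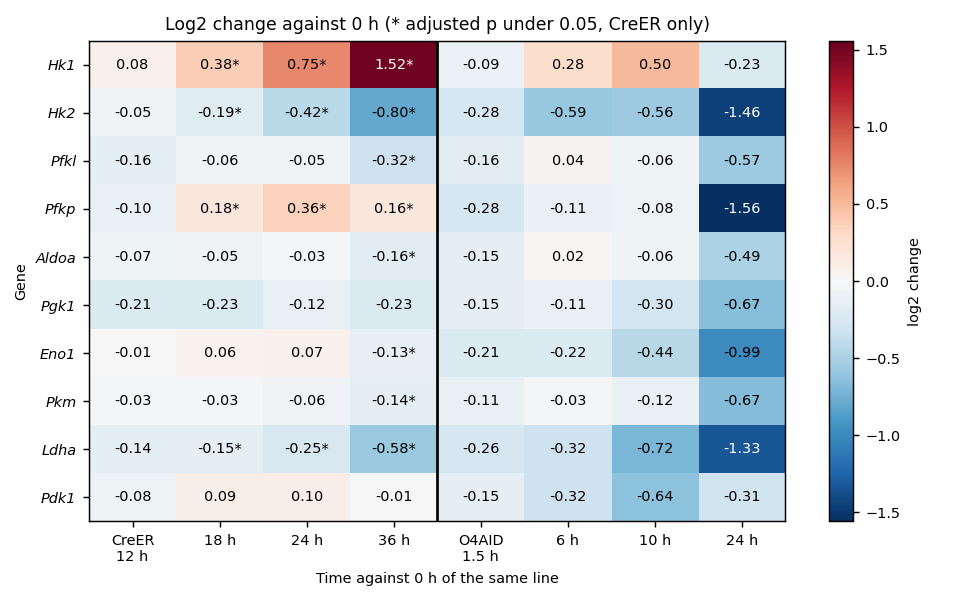
Log2 change of each of the 10 genes (rows) against 0 h of its own line, for the 4 CreER times and the 4 O4AID times (columns), with red for higher and blue for lower. Stars mark CreER values past the edgeR test, and O4AID values carry no test. *Hk1* reached 1.52 at 36 h in CreER, and the O4AID 24 h column is blue throughout.

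Hexokinases add the first phosphate to glucose and so trap it in the cell. *Hk1* (ENSMUSG00000037012, chr10:62268855-62379908, minus strand), the isozyme most adult tissues keep on, was at 36.9 and 37.0 CPM at 0 h, 39.8 and 38.1 CPM at 12 h, 50.4 and 46.0 CPM at 18 h, 64.7 and 59.8 CPM at 24 h and 112 and 98.9 CPM at 36 h in replicates 1 and 2 of CreER. Both libraries were above both 0 h libraries at every time, and each later time lay above the one before. The log2 change was 0.38 ± 0.066 (SE) at 18 h (edgeR adjusted p = 0.000321), 0.75 ± 0.064 (SE) at 24 h (adjusted p = 1.52e-09) and 1.52 ± 0.063 (SE) at 36 h, 2.86-fold (adjusted p = 2.3e-16), the largest change of the 10 genes in this line. In O4AID *Hk1* was at 175 CPM at 0 h, 164 CPM at 1.5 h, 213 CPM at 6 h, 249 CPM at 10 h and 149.6 CPM at 24 h. It was higher at 6 and 10 h and lower again at 24 h, with log2 differences of 0.50 (95% counting interval 0.46 to 0.54) at 10 h and -0.23 at 24 h.

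*Hk2* (ENSMUSG00000000628, chr6:82725025-82774454, minus strand), the inducible isozyme that many tumours and embryonic cells use, went the other way in CreER. There it was at 315 and 343 CPM at 0 h, 315 and 319 CPM at 12 h, 296 and 282 CPM at 18 h, 243 and 248 CPM at 24 h and 194 and 184 CPM at 36 h. The 18, 24 and 36 h libraries were all below both 0 h libraries and the level stepped down at each of these times. The log2 change was -0.19 ± 0.044 (SE) at 18 h (edgeR adjusted p = 0.00658, lost without 0 h replicate 2 or 18 h replicate 2, adjusted p up to 0.152), -0.42 ± 0.044 (SE) at 24 h (adjusted p = 4.34e-08) and -0.80 ± 0.045 (SE) at 36 h (adjusted p = 5.2e-14). In O4AID it was at 374 CPM at 0 h, 309 CPM at 1.5 h, 249 CPM at 6 h, 253 CPM at 10 h and 136 CPM at 24 h. It was lower already at 1.5 h, as all 10 genes were. Its log2 difference was -0.28 (95% counting interval -0.31 to -0.25) at 1.5 h and -1.46 at 24 h.

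The 2 genes thus held different shares of the hexokinase step at the end. Levels per length (RPKM) here divide reads by the summed length of all annotated exons of a gene. This can exceed the length of the transcripts in use, so shares of a step depend on it. By RPKM *Hk1* made 7.27% ± 0.390 (SD, n = 2) of the summed RPKM of *Hk1*, *Hk2*, *Hk3* and *Hkdc1* in CreER at 0 h, 10.4% ± 0.283 at 18 h and 28.0% ± 1.02 at 36 h. *Hk2* went from 92.5% ± 0.376 to 71.5% ± 1.16 over the same time, and the values of the replicates at 0 and 36 h did not overlap. The shares were not tested. In O4AID the *Hk1* share at 0, 10 and 24 h was 24.7%, 40.7% and 43.5%. The summed RPKM of the step meanwhile went from 59.6 to 44.2 in CreER and from 83.3 to 40.3 in O4AID. Per length *Hk2* remained the larger of the pair in every library. By reads alone, *Hk1* was at 52.4% and *Hk2* at 47.5% of the step in O4AID at 24 h.

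**Figure D2:**
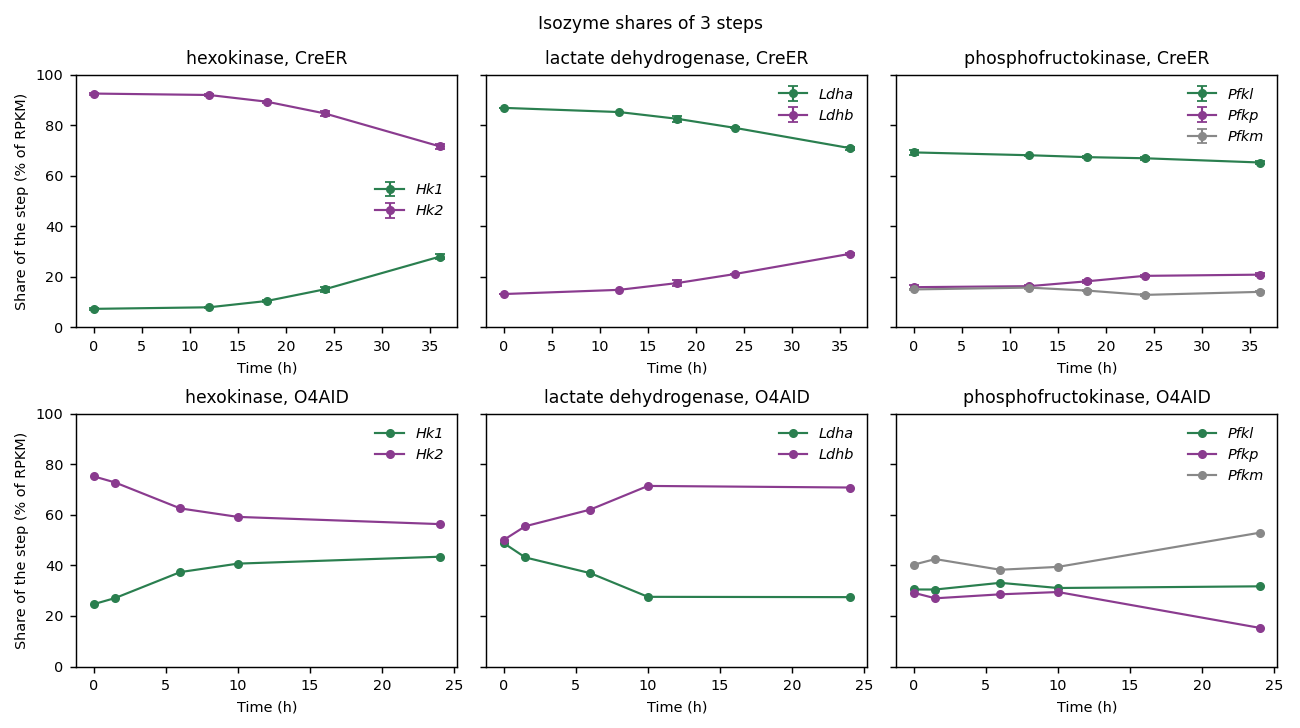
Share of the summed RPKM of a step (y axis, percent) held by each main isozyme against time (x axis, hours), for hexokinase, lactate dehydrogenase and phosphofructokinase in CreER (top, mean ± SD of 2 libraries) and O4AID (bottom, 1 library per time). The *Hk1* share was higher at the end in both lines, going from 7.27% to 28.0% in CreER and from 24.7% to 43.5% in O4AID, and so was the *Ldhb* share.

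Phosphofructokinase 1 takes the committed step, and its subunits come from *Pfkl*, *Pfkp* and *Pfkm*. *Pfkl* (ENSMUSG00000020277, chr10:77986947-78010083, minus strand), the liver type, was at 352 and 339 CPM at 0 h, 304 and 315 CPM at 12 h, 327 and 336 CPM at 18 h, 329 and 337 CPM at 24 h and 279 and 275 CPM at 36 h in CreER. All later libraries were below both at 0 h, but the change passed the test at 36 h only, at -0.32 ± 0.04 (SE) (edgeR adjusted p = 3.11e-07). In O4AID *Pfkl* was at 137 CPM at 0 h, 123 CPM at 1.5 h, 141 CPM at 6 h, 131 CPM at 10 h and 92.1 CPM at 24 h, close to its 0 h level until 10 h and at log2 -0.57 (95% counting interval -0.63 to -0.52) at 24 h, just inside 1.5-fold.

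*Pfkp* (ENSMUSG00000021196, chr13:6579768-6648777, minus strand), the platelet type, had changes of opposite sign in the 2 lines. CreER libraries held it at 163 and 175 CPM at 0 h, 153 and 163 CPM at 12 h, 193 and 189.8 CPM at 18 h, 217 and 216 CPM at 24 h and 185 and 193 CPM at 36 h, highest at 24 h and above both 0 h libraries from 18 h on. It rose by 0.18 ± 0.043 (SE) on the log2 scale at 18 h (edgeR adjusted p = 0.00894) and 0.36 ± 0.043 (SE) at 24 h (adjusted p = 6.18e-07). The 18 h call was lost without 0 h replicate 1 or either 18 h replicate (adjusted p up to 0.113). The 36 h rise of 0.16 ± 0.044 (SE) (adjusted p = 0.00498) was lost with total-count scaling and without 0 h replicate 1 or 36 h replicate 2, with log2 values down to 0.074. In O4AID *Pfkp* was at 281 CPM at 0 h, 232 CPM at 1.5 h, 261 CPM at 6 h, 266 CPM at 10 h and 94.8 CPM at 24 h. It was near its 0 h level at 6 and 10 h and then by far lowest at 24 h, at log2 -1.56 (95% counting interval -1.61 to -1.51). Exons of *Pfkp* share 372 bases with those of *Pitrm1* on the other strand, and the strand setting of the counting was not stated, so reads there cannot be told apart. Per length, *Pfkl* made 69.2% ± 1.13 (SD, n = 2) of the step in untreated CreER, and *Pfkp* 15.9% ± 0.916, with *Pfkm* holding the rest, whereas in untreated O4AID *Pfkl*, *Pfkp* and *Pfkm* made 30.5%, 29.2% and 40.3%. By 24 h in O4AID *Pfkp* was at 15.3% and *Pfkm* at 53.0% per length. By reads alone the order in untreated O4AID differed, with *Pfkl* at 25.4%, *Pfkp* at 52.0% and *Pfkm* at 22.6%. At 24 h these read shares were 31.7%, 32.6% and 35.6%.

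*Aldoa* (ENSMUSG00000030695, chr7:126795234-126809108, minus strand) encodes the aldolase that splits fructose 1,6-bisphosphate. It was at 1216 and 1193 CPM at 0 h, 1135 and 1162 CPM at 12 h, 1162 and 1165 CPM at 18 h, 1188 and 1169 CPM at 24 h and 1081 and 1075 CPM at 36 h in CreER. These levels are narrow and high, and both libraries of each time were below both at 0 h. Only 36 h passed the test, at -0.16 ± 0.036 (SE) (edgeR adjusted p = 0.000746). In O4AID it was at 1384 CPM at 0 h, 1244 CPM at 1.5 h, 1402 CPM at 6 h, 1323 CPM at 10 h and 983 CPM at 24 h, and at 24 h it stood at log2 -0.49 (95% counting interval -0.51 to -0.47), inside 1.5-fold. *Aldoa* made 97.1% of aldolase RPKM in untreated O4AID and more in untreated CreER, with *Aldoc* holding nearly all of the rest.

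*Pgk1* (ENSMUSG00000062070, chrX:106187100-106203699, plus strand) encodes phosphoglycerate kinase, which makes the first ATP of the pathway. In CreER it was at 77.5 and 100.1 CPM at 0 h, 72.1 and 82.2 CPM at 12 h, 75.4 and 76.8 CPM at 18 h, 82.0 and 82.1 CPM at 24 h and 79.7 and 72.2 CPM at 36 h. Relative to their level the 0 h replicates were the farthest apart of the 10 genes, and the change did not pass the test at any time (36 h, -0.23 ± 0.12 (SE), edgeR adjusted p = 0.212). This rests on 1 library, since without 0 h replicate 1 *Pgk1* was called lower at every time, at log2 -0.39 at 36 h (adjusted p = 2.15e-05). In O4AID it was at 424 CPM at 0 h, 382 CPM at 1.5 h, 393 CPM at 6 h, 343 CPM at 10 h and 267 CPM at 24 h, at log2 -0.67 (95% counting interval -0.70 to -0.63) at 24 h. *Eno1* (ENSMUSG00000063524, chr4:150236721-150248879, plus strand) encodes the enolase that makes phosphoenolpyruvate. The CreER libraries held 335 and 302 CPM at 0 h, 322 and 310.5 CPM at 12 h, 329 and 333 CPM at 18 h, 318 and 351 CPM at 24 h and 288 and 295 CPM at 36 h, overlapping the 0 h libraries until 24 h and below both at 36 h. The 36 h change of -0.13 ± 0.048 (SE) (adjusted p = 0.0375) lay close to the threshold and was lost with DESeq2, with the 0 and 36 h libraries alone, and without 0 h replicate 1 or either 36 h replicate. In O4AID *Eno1* was at 1098 CPM at 0 h, 947 CPM at 1.5 h, 943 CPM at 6 h, 811 CPM at 10 h and 552 CPM at 24 h with lower levels at 10 h and again at 24 h, and stood at log2 -0.99 (95% counting interval -1.01 to -0.97) at 24 h.

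*Pkm* (ENSMUSG00000032294, chr9:59656368-59679375, plus strand) encodes pyruvate kinase, and had the highest level per length (RPKM) of the 10 genes in every library. The CreER libraries held 1955 and 1908 CPM at 0 h, 1891 and 1902 CPM at 12 h, 1873 and 1917 CPM at 18 h, 1828 and 1884 CPM at 24 h and 1696 and 1808 CPM at 36 h. The change passed the test at 36 h only, where both libraries were below both at 0 h, at -0.14 ± 0.038 (SE) (edgeR adjusted p = 0.00398), a call that was lost without 36 h replicate 1 or with the 0 and 36 h libraries alone. In O4AID it was at 1651 CPM at 0 h, 1527 CPM at 1.5 h, 1619.8 CPM at 6 h, 1522 CPM at 10 h and 1036 CPM at 24 h and at log2 -0.67 (95% counting interval -0.69 to -0.66) at 24 h. *Pkm* makes an M1 and an M2 enzyme by exchange of 1 exon, and counts per gene do not separate them.

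*Ldha* (ENSMUSG00000063229, chr7:46841475-46855627, plus strand) encodes the lactate dehydrogenase subunit that favours making lactate from pyruvate. CreER libraries held 1009.6 and 923 CPM at 0 h, 873 and 876 CPM at 12 h, 845 and 899 CPM at 18 h, 812 and 808 CPM at 24 h and 654 and 641 CPM at 36 h, below both 0 h libraries at every later time and lowest at 36 h. It fell by 0.15 ± 0.042 (SE) on the log2 scale at 18 h (edgeR adjusted p = 0.0253), 0.25 ± 0.042 (SE) at 24 h (adjusted p = 5.66e-05) and 0.58 ± 0.042 (SE) at 36 h (adjusted p = 1.37e-11). In O4AID it was at 589 CPM at 0 h, 493 CPM at 1.5 h, 472 CPM at 6 h, 358 CPM at 10 h and 234 CPM at 24 h, with each time below the one before and log2 -1.33 (95% counting interval -1.36 to -1.30) at 24 h. The 18 h call in CreER was lost with the 0 and 18 h libraries alone and without 0 h replicate 1 or 18 h replicate 1 (adjusted p up to 0.361), whereas the 24 and 36 h calls held in all. *Ldhb*, which encodes the subunit that favours the reverse reaction, rose in CreER by 0.86 ± 0.049 (SE) on the log2 scale at 36 h (adjusted p = 7.89e-14). In O4AID its log2 difference was 0.62 at 10 h and -0.0011 at 24 h. Per length, *Ldha* made 86.8% ± 0.0888 (SD, n = 2) of lactate dehydrogenase RPKM in CreER at 0 h and 70.9% ± 0.579 at 36 h. In O4AID it made 48.9% at 0 h, 27.6% at 10 h and 27.5% at 24 h, where *Ldhb* held 70.8%.

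*Pdk1* (ENSMUSG00000006494, chr2:71873224-71903858, plus strand) encodes a kinase that switches off pyruvate dehydrogenase and so keeps pyruvate out of the mitochondria. It stands beside glycolysis and not in it. In CreER it was at 242 and 245 CPM at 0 h, 220.3 and 239 CPM at 12 h, 254 and 264 CPM at 18 h, 259.5 and 263 CPM at 24 h and 241 and 242 CPM at 36 h. No time passed the test, and the 36 h value of -0.011 ± 0.042 (SE) was the smallest of the 10 (adjusted p = 0.87). In O4AID it was at 46.7 CPM at 0 h, 41.9 CPM at 1.5 h, 37.2 CPM at 6 h, 29.6 CPM at 10 h and 37.6 CPM at 24 h, and per length it had the lowest level of the 10 genes in this line, with log2 -0.64 (95% counting interval -0.74 to -0.54) at 10 h and -0.31 at 24 h. Per length *Pdk1* made 62.0% ± 1.78 (SD, n = 2) of the 4 *Pdk* genes in untreated CreER and 21.1% in untreated O4AID, where *Pdk3* held 54.3%.

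**Figure D3:**
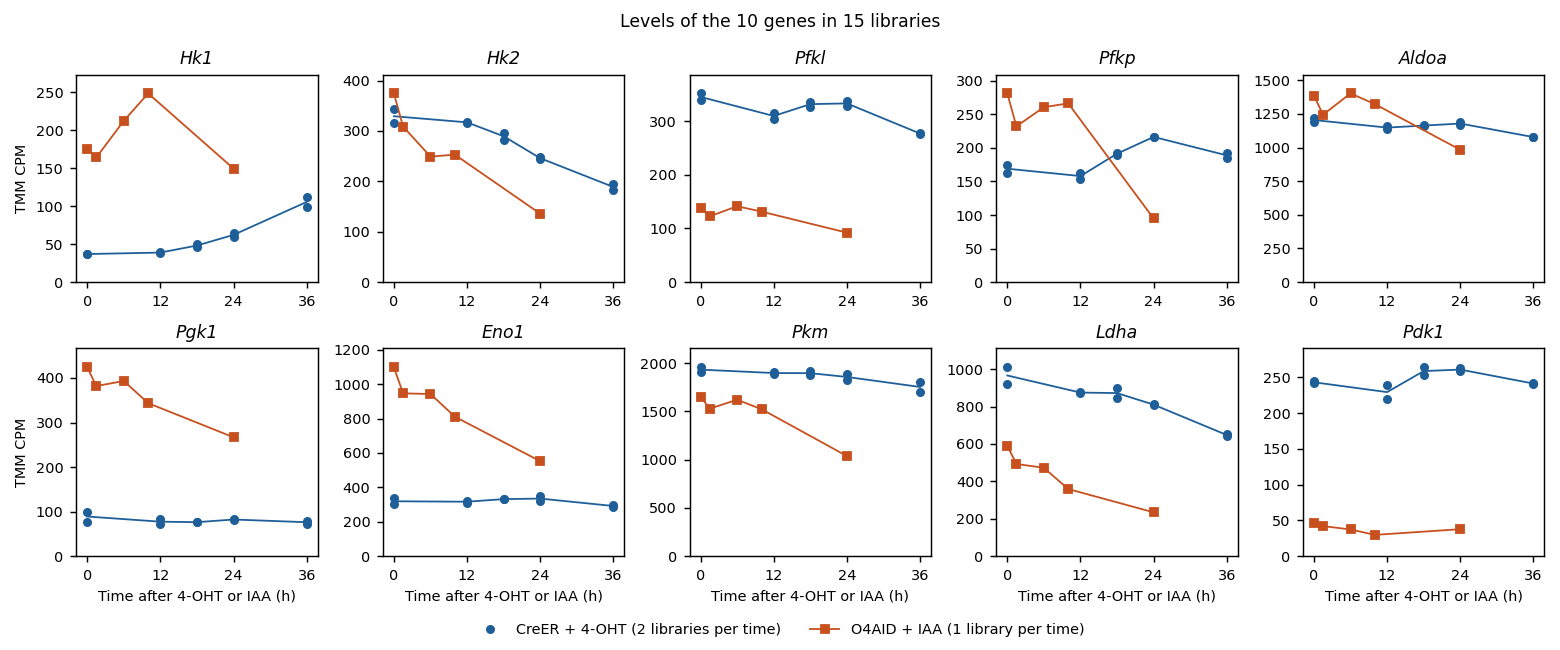
Level of each of the 10 genes in TMM-scaled CPM (y axis, each from 0) against hours after 4-OHT or IAA (x axis). Circles are the 10 CreER libraries with a line through the means of 2, and squares are the 5 O4AID libraries. *Hk1* climbs from 36.9 and 37.0 to between 98.9 and 112 CPM in CreER, and in O4AID 9 of the 10 genes are at their lowest at 24 h.

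Several of the 10 genes have copies in the mouse genome so alike that a short read can match gene and copy equally. How such reads were counted was not stated. Copies of at least 90% identity over at least 300 bases were found for *Aldoa*, *Pgk1*, *Eno1*, *Pkm* and *Ldha*, and none were found for *Hk1*, *Hk2*, *Pfkl*, *Pfkp* and *Pdk1*. In CreER 79.3% of the reads on *Pgk1* and its copies lay on the copies (78.6% to 80.7% over 10 libraries), against 6.86% in O4AID (6.67% to 7.11% over 5). For *Eno1* the share was 81.6% in CreER and 26.0% in O4AID, for *Pkm* 28.6% and 0.0212%, and for *Ldha* 13.1% and 0.0210%. The ranges of the lines did not overlap for any of these 4 genes. Not all copies are annotated as pseudogenes. *Eno1b*, 99.5% identical to *Eno1* over 1736 aligned bases, is annotated as protein-coding. It was at 768 to 1015 CPM in CreER, where all *Eno1* copies together held 1174 to 1563 CPM, and at 162 to 311 CPM in O4AID. *Pgk1-rs7*, identical to *Pgk1* over 1255 aligned bases, was at 146 to 209 CPM in CreER and 17.8 to 27.0 in O4AID, and *Gm6560*, 98.4% identical to *Pkm* over 1593 bases, at 649 to 825 and 0.0441 to 0.39. Whether reads counted on a copy came from the gene or from the copy was not tested.

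**Figure D4:**
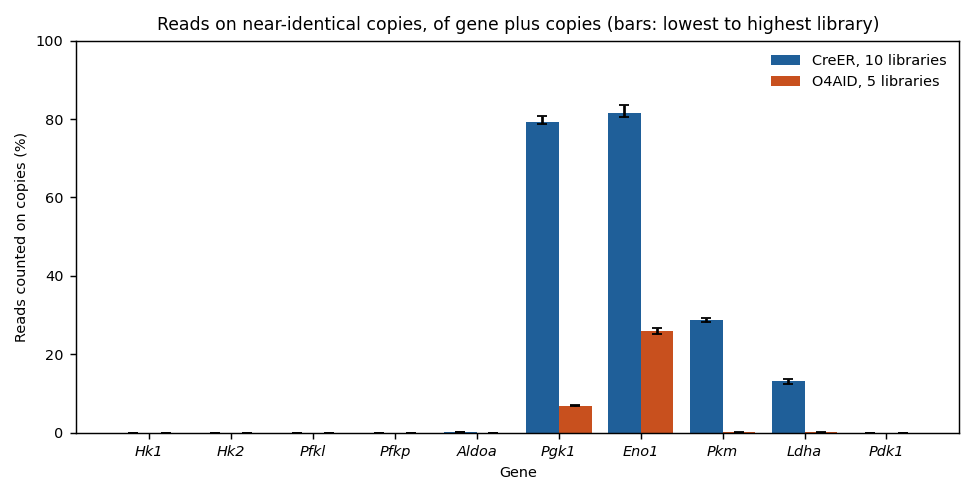
Percent of the reads on a gene and its near-identical copies that were counted on the copies (y axis), for each of the 10 genes (x axis), in CreER (10 libraries) and O4AID (5 libraries), with whiskers from the lowest to the highest library. *Pgk1* and *Eno1* had 79.3% and 81.6% of these reads on copies in CreER, and 5 genes have no copies and stand at 0.

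Adding the reads of the copies, an alternative chosen after seeing the data, changed 2 calls in CreER, both of *Pgk1*. With them *Pgk1* fell at 18 h, at log2 -0.23 (adjusted p = 0.0201) in edgeR, and at 36 h, at -0.27 (adjusted p = 0.00142), so 9 of the 10 genes were called at 36 h, all but *Pdk1*. For *Eno1* the 36 h value became -0.23 (adjusted p = 9.76e-06) and for *Ldha* -0.57 (adjusted p = 6.04e-12). In O4AID the 24 h differences of *Pgk1*, *Eno1*, *Pkm* and *Ldha* were the same with and without copies to the digits printed here.

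The untreated lines already stood apart in several of these genes. Scaled over all 15 libraries, *Hk1* was at 4.25 and 4.23 RPKM in CreER and 21.9 in O4AID, a log2 difference of 2.37. *Pdk1* was at 30.5 and 30.7 RPKM in CreER and 6.39 in O4AID, a log2 difference of -2.26. The O4AID 0 h library was also above both CreER ones for *Pfkp* (0.85), *Aldoa* (0.32) and *Hk2* (0.31) and below both for *Pfkl* (-1.21) and *Ldha* (-0.59). *Pgk1* and *Eno1* were 2.38 and 1.90 higher in O4AID by their own reads but 0.18 and -0.17 with the reads of copies. *Pkm* was at -0.11 by its own reads and -0.60 with copies. Line, strain and library set cannot be told apart here, with 1 untreated O4AID library there is no test, and at 36 h in CreER *Hk1* was still below its untreated level in O4AID. Per length, and by own reads, the order in untreated CreER ran from *Pkm* through *Aldoa*, *Ldha*, *Pfkl*, *Eno1*, *Hk2*, *Pgk1*, *Pdk1* and *Pfkp* to *Hk1*. The ranges of the 2 libraries overlapped for *Eno1* and *Hk2* and stood apart for the other neighbours. The order depends on the summed exon lengths and on the reads of copies. With copies *Eno1* was at 1772 and 1801 CPM in untreated CreER, above *Aldoa* at 1194 and 1164.

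The remaining glycolysis enzymes gave a mixed picture. In CreER at 36 h, 2 of 15 that could be tested rose and 6 fell, with a median log2 change of -0.096, where 36.6% of all genes were called (19.4% higher, 17.2% lower). *Ldhb* and *Pgam2*, the muscle phosphoglycerate mutase, rose, and *Pfkm*, *Tpi1*, *Aldoc*, *Bpgm*, *Gapdh* and *Pgam1* fell. *Pgam2* was at 0.91 ± 0.26 (SE) (edgeR adjusted p = 0.0064) and *Pfkm*, the muscle type of phosphofructokinase, at -0.33 ± 0.055 (SE) (adjusted p = 2.85e-05). *Tpi1*, the triose phosphate isomerase, was at -0.32 ± 0.044 (SE) (edgeR adjusted p = 1.35e-06) and *Gapdh*, the dehydrogenase of the next step, at -0.15 ± 0.051 (SE) (adjusted p = 0.0231), though 89.5% of *Gapdh* reads in CreER lay on copies. In O4AID at 24 h, 1 of 13 was past 1.5-fold higher and 2 lower, a share near the 22.3% of all genes (12.6% higher, 9.77% lower), with a median of -0.0011. The 2 lower ones were *Gapdh* (-0.61) and *Pgam1* (-0.63), and the higher one was *Eno3* (0.73), the muscle enolase. *Tpi1* was at -0.47 and *Pfkm* at -0.24. *Gpi1*, which feeds phosphofructokinase, did not pass in CreER (0.0024 ± 0.045 (SE), adjusted p = 0.974) and was at -0.11 in O4AID.

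Carriers that bring glucose in and take lactate out moved in CreER in opposite directions. Of the 4, 2 rose and 2 fell at 36 h, against 19.4% and 17.2% of all genes. *Slc2a1* and *Slc2a3*, the glucose transporters GLUT1 and GLUT3, rose at 36 h by 0.54 ± 0.046 (SE) (edgeR adjusted p = 5.51e-10) and 0.80 ± 0.036 (SE) (adjusted p = 8.82e-16) on the log2 scale. *Slc16a1* and *Slc16a3*, the lactate carriers MCT1 and MCT4, fell, at -0.38 ± 0.043 (SE) (adjusted p = 4.59e-08) and -0.41 ± 0.053 (SE) (adjusted p = 4.74e-07). For *Slc2a1* the O4AID libraries of 0, 6, 10 and 24 h held 180.3, 361, 383 and 225 CPM, highest at 10 h as *Hk1* was. *Slc16a3* was lower at 24 h (-1.16), as *Ldha* was, whereas *Slc16a1* was at -0.12 and *Slc2a3* at 0.22. At that time 0 of the 4 carriers were past 1.5-fold higher and 1 lower, against 12.6% and 9.77% of all genes. Of the 5 enzymes that set fructose 2,6-bisphosphate, the activator of phosphofructokinase, *Pfkfb2* (0.51 ± 0.13 (SE)) and *Pfkfb3* (0.34 ± 0.097 (SE)) rose in CreER at 36 h, and *Tigar*, a phosphatase that removes it, fell (-0.32 ± 0.053 (SE)), against 36.6% of all genes called. In O4AID at 24 h *Pfkfb3* was at 0.79 and *Tigar* at -1.07, both past 1.5-fold.

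**Figure D5:**
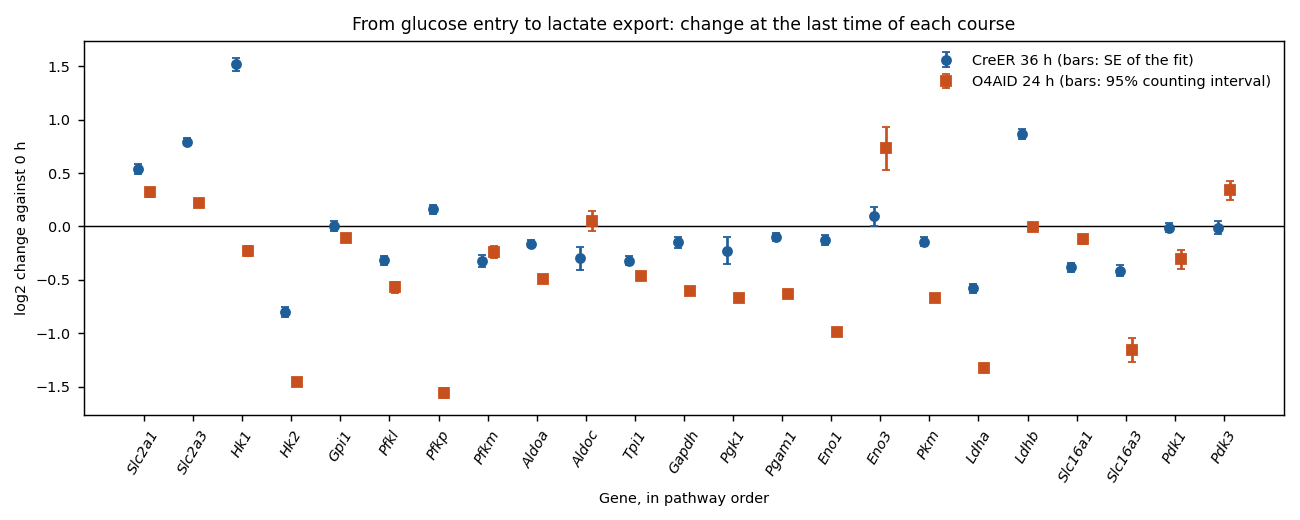
Log2 change against 0 h (y axis) at 36 h in CreER (circles, bars SE of the fit) and 24 h in O4AID (squares, bars 95% counting interval) for genes in pathway order from glucose entry to lactate export (x axis). Glucose transporters and *Hk1* stand above 0 in CreER, *Slc16a3* and *Ldha* below 0 in both lines, and all 10 genes of the main list are below 0 in O4AID.

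Around pyruvate dehydrogenase, 1 of 12 genes rose and 4 fell in CreER at 36 h, a share near the 36.6% of all genes called. *Mpc2*, 1 subunit of the mitochondrial pyruvate carrier, rose (0.41 ± 0.13 (SE)), and *Pdp1*, the phosphatase that opposes the *Pdk* kinases, fell (-0.42 ± 0.11 (SE)), as did *Pdhb* (-0.36 ± 0.05 (SE)), *Pdha1* (-0.19 ± 0.041 (SE)) and *Dld* (-0.14 ± 0.051 (SE)). Other kinases of the *Pdk* family did not pass, with *Pdk2* at 0.21 ± 0.21 (SE) (edgeR adjusted p = 0.468) and *Pdk3* at -0.011 ± 0.062 (SE) (adjusted p = 0.911). In O4AID at 24 h none was past 1.5-fold higher and 2 were lower, *Pdk4* (-1.36) and *Pdp1* (-0.67), against 9.77% of all genes lower. In the TCA cycle 3 of 16 rose and 2 fell in CreER and 0 of 16 were higher and 2 lower in O4AID, neither above the 36.6% and 22.3% of all genes. Among these changes in CreER were those of *Ogdh* (0.15 ± 0.044 (SE)) upward and *Sdha* (-0.14 ± 0.043 (SE)) and *Mdh2* (-0.11 ± 0.041 (SE)) downward. In the pentose phosphate pathway 2 of 7 rose and 1 fell in CreER, namely *Rpia* (0.45 ± 0.1 (SE)), *Pgls* (0.30 ± 0.063 (SE)) and *G6pdx* (-0.15 ± 0.051 (SE)), again near 36.6%, and none of 7 was past 1.5-fold in O4AID. Of gluconeogenesis genes 2 of 5 rose in CreER, *Fbp2* (1.48 ± 0.13 (SE)) and *G6pc3* (0.40 ± 0.14 (SE)), against 19.4% of all genes higher. In O4AID 1 of 5 was higher (*G6pc3*, 0.93) and 2 were lower, against 12.6% and 9.77% of all genes.

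Genes of the hypoxia response outside glycolysis went both ways. In CreER at 36 h, 7 of 16 rose and 3 fell, against 19.4% and 17.2% of all genes, led by *Vegfa* (0.94 ± 0.076 (SE)) and *Ndrg1* (0.77 ± 0.068 (SE)) upward and *Kdm3a* (-0.68 ± 0.044 (SE)) and *Ankrd37* (-0.45 ± 0.17 (SE)) downward, and in O4AID at 24 h 3 of 14 were higher and 3 lower, against 12.6% and 9.77%. Of the HIF and MYC factors and their partners, 0 of 8 rose and 5 fell in CreER, against the same 19.4% and 17.2%. *Epas1*, which encodes HIF2A, was at -1.40 ± 0.076 (SE), *Myc* at -1.21 ± 0.088 (SE) and *Mycn* at -0.83 ± 0.045 (SE), whereas *Hif1a* did not pass (0.011 ± 0.047 (SE), edgeR adjusted p = 0.881). In O4AID *Mycn* was at -1.48 and *Hif1a* at -0.21 at 24 h. Of the 7 past the filter there, 0 were past 1.5-fold higher and 1 lower, against 12.6% and 9.77% of all genes. Their median was -0.13. *Myc* stood at 24.9 and 25.3 CPM in untreated CreER but at 0.0212 in untreated O4AID. The part of these factors in the values of the 10 genes was not tested.

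Over the 15 libraries, each line centred on its own mean, the profiles of the 10 genes were compared with each other and with those of 9707 genes of at least 10 CPM. These r values are descriptions only, since libraries of a course share a time order and a 0 h reference. *Pfkl* and *Aldoa* were the closest pair (Pearson r = 0.96), followed by *Aldoa* and *Pkm* (0.95), and *Hk2* and *Ldha* were at 0.94. *Hk1* and *Hk2* ran against each other in CreER, at -0.98 over its 10 libraries, and were at -0.53 over all 15. In O4AID both were lower at 1.5 h than at 0 h (-0.094 and -0.28) and at 24 h than at 10 h (-0.73 and -0.89). From 1.5 to 6 h they went apart (0.37 and -0.31), and from 6 to 10 h the steps were 0.23 and 0.022. The gene nearest to the mean of the 10 was *Sox2* (0.98), the partner of OCT4, followed by *Psmg4*, *Prr11*, *Fblim1* and *Tmc7* (0.96 each). Nearest to *Hk2* were *Park7* (0.99), *Sinhcaf* and *Ctbp2* (0.98 each). Nearest to *Hk1* were *Alpk3*, *Fbxl12* and *Ctnna1* (0.98 each). *Slc16a3*, the lactate carrier, was nearest to both *Aldoa* (0.98), before *Uchl1* and *Fyn* (0.94 each), and *Pfkl* (0.96), before *Recql4* and *Fcf1* (0.92 or more). *Pkm* was closest to *Grb10* (0.98), *Zfp729b* and *Phgdh* (0.97 or more), and *Ldha* to *Phf11d*, *Mcm2* and *Rcc2* (0.98 each). *Eno1* was closest to *Snrpa* (0.96), *Jup* and *Rfx2* (0.95 or more), and *Pfkp* to *Evpl* (0.96), *Mmrn2* and *Vwf* (0.94 each). *Pdk1* had the least similar neighbours, *Pcca* (0.88), *Id3* (0.87) and *Cdh1* (0.85). Nearest to *Pgk1* were *Pgk1-rs7* (0.95) and *Gm5537*, copies of its own with which it can share reads, and *Rps24* (0.91).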

How the data were processed

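RNA-seq of 15 mouse ESC libraries was analysed, 2 per time in CreER and 1 per time in O4AID. Per the labels and the study's methods, the authors removed rRNA (Ribo-Zero), made directional paired-end libraries, trimmed reads (Trim Galore 0.1.4), aligned them to mm10 with TopHat2 2.1.0 and counted them per Ensembl GRCm38 gene with featureCounts 1.5.1. Strand and multi-mapping settings are not given in the sources used here. The deposited values are raw read counts (48801 entries, of which 92 spike-ins with 0 reads were left out, and 0.0412% of reads were on genes without a symbol). The authors also deposited a table of TMM-normalised signal values for part of the genes, which was used only to check the counts. No deposited column lacked a sample.

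CreER counts were fitted in edgeR 4.0.16 (R 4.3.3): TMM scaling, filterByExpr, and a robust two-sided quasi-likelihood test of each time against 0 h in 1 fit of 10 libraries, Benjamini-Hochberg adjusted over 18969 genes, prior count 0.125, 5 residual degrees of freedom, calls at adjusted p under 0.05. The 4 contrasts share the 0 h libraries. SE are those of the fitted log2 changes. O4AID has no replicates, and differences are of log2(TMM CPM + 1), which understates the change of low genes, over 13772 genes with a mean of at least 1 CPM, with 95% Wilson intervals on the counts. Reads carry no molecular identifiers, so intervals cover counting error only. Depth was 21.7 to 30.8 mega-counts in CreER and 40.5 to 48.7 in O4AID. Replicates of a time differed beyond sampling noise (chi-square per degree of freedom 3.02 to 7.00), so none was a duplicate. RPKM used summed exon lengths. Copies were found with BLAST 2.17.0, and promoter windows are from RefSeq (GRCm38.p6). The simulation-based test for samples without replicates that the study used was not used here. The computations were tested on simulated data.

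The members and the gene lists were chosen with earlier results of these data known. Named were the 10 members in all libraries, of each other list up to 2 genes per direction with the largest called CreER change at 36 h, a fixed set (*Gapdh*, *Tpi1*, *Gpi1*, *Pgam1*, *Pfkm*, *Slc2a1*, *Slc2a3*, *Slc16a3*, *Pdk2*, *Pdk3*, *Pfkfb3*, *Hif1a*, *Myc*, *Mycn*, *Pou5f1*), and by likeness the 5 nearest to the members' mean and the 3 nearest to each. Further names (*Aldoc*, *Bpgm*, *Eno3*, *Pdha1*, *Dld*, *Pdk4*, named copies) were added after their values were seen. Some genes of the lists are not reported by name here. Alternatives were DESeq2 1.42.0, RLE and total-count scaling, other count filters, the compared libraries alone, a replicate block, other pseudocounts (0.1 and 5 CPM), a 2-fold threshold, the 1.5 h library as reference, leaving out each replicate and, added after seeing the data, the reads of copies.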

Additional observations from a re-analysis of the deposited data

Results flagged for a closer look

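Each of 3 genes had changes of opposite sign in the lines 24 h after OCT4 loss was started, in every library of each line. The difference between the lines was not tested, since O4AID has 1 library per time, and line and strain differ between them.

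*Hk1* was at a log2 change of 0.75 in CreER (0.79 and 0.68 for the replicates) and -0.23 in O4AID. *Pfkp* was at 0.36 in CreER (0.36 and 0.35) and -1.56 in O4AID. *Pdk1* was at 0.10 in CreER (0.093 and 0.11), which did not pass the test, and -0.31 in O4AID.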

How the results depend on the processing

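At 24 h *Hk1*, *Hk2*, *Pfkp* and *Ldha* were called under every alternative tried, and at 36 h *Hk1*, *Hk2*, *Pfkl*, *Aldoa* and *Ldha* were. Members called at 12 h went from 0 to 2 with no filter (*Pfkl*, *Ldha*), to 1 with total-count scaling (*Pfkl*) and to between 0 and 1 without each replicate. Without each replicate they were 2 to 3 at 18 h, 4 to 6 at 24 h and 6 to 8 at 36 h, and over the other settings 6 to 9 at 36 h. In O4AID the 1 member past 1.5-fold at 6 h was 0 with total-count scaling, a pseudocount of 5, a 2-fold threshold or the 1.5 h library as reference. The 2 at 10 h became 1 with a pseudocount of 5 or the 1.5 h reference and 0 at 2-fold, and the 6 at 24 h became 3 at 2-fold. The 6 h median turned to 0.064 with the 1.5 h reference. Small changes that reversed were those of *Eno1* at 12 h (from -0.085 to 0.064 without each replicate), 18 h (-0.065 with copies, -0.017 to 0.13 without each replicate) and 24 h (-0.057 with copies, -0.0054 to 0.14 without each replicate), *Hk2* at 12 h (-0.11 to 0.0069 without each replicate) and *Pgk1* at 24 h (-0.29 to 0.080 without each replicate). The cause was not tested. Genes called over the whole table were 75 at 12 h (222 with no filter, 8 to 218 without each replicate), 1616 at 18 h (956 with DESeq2, 582 to 2006 without each replicate) and 4089 at 24 h (2540 with DESeq2, 2343 to 3703 without each replicate). With the replicate number as a block, members called were 0, 4, 4 and 8 at the 4 times, as without it. Same-numbered libraries did not deviate together (correlations -0.021 to 0.050), so they share only a number. O4AID has no replicates, and its intervals cover counting error only.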

Other observations

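Other steps of glycolysis also had many reads on copies in CreER and few in O4AID. For *Gpi1* the share of reads on its copy was 54.7% in CreER and 0.0130% in O4AID, for *Pgam1* 31.4% and 1.99%, and for *Gapdh*, with 169 copies in the counted set, 89.5% and 59.6%. *Ldhb* and *Ldha* had like shares in CreER (13.2% and 13.1%).

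The summed levels of markers of other cell types shifted over the same times. All 4 formative epiblast markers fell in CreER at 36 h, when 19.4% of all genes were called higher and 17.2% lower. Their summed level went from between 656 and 662 CPM to between 487 and 495. That of 4 mesenchyme markers went from between 159 and 173 to between 207 and 225, and that of 5 primitive endoderm markers from between 4.53 and 5.50 to between 8.47 and 8.84. Of the 4 mesenchyme markers 2 rose and 0 fell, and of the 4 primitive endoderm markers tested 1 rose and 1 fell. In O4AID the same sums went from 98.6 to 118, from 97.7 to 209 and from 7.89 to 25.1 CPM at 24 h. Single markers went apart there. Of 3 mesenchyme markers past the filter, 1 was past 1.5-fold higher (1.14) and 1 lower (-1.37). Of 2 formative epiblast markers 0 were higher and 1 lower, and of 2 primitive endoderm markers 1 was higher, against 12.6% and 9.77% of all genes. All 8 naive markers were past 1.5-fold lower in O4AID at 24 h, against 9.77% of all genes, with a median log2 difference of -1.90. In CreER at 36 h 2 of them rose and 5 fell, against 19.4% and 17.2% of all genes. The part of these shifts in the values of the 10 genes was not tested.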
